A study of Nicotiana benthamiana with 8 samples.

Results

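The contigs annotated as half-size ABCG transporters were examined in Nicotiana benthamiana leaves that transiently expressed the apple transcription factor MdMYB68. They were taken from the deposited table of 3305 contigs as every row whose annotation contained the words ABC transporter G, or whose Arabidopsis symbol was WBC11, AT2G37360, AT3G55090, AT2G39350 or AT5G19410. This gave 32 rows, and 13 rows with the symbol PDR12, which stands for a full-size ABCG transporter, were left out. The remaining 19 contigs carried 8 ABCG numbers in their annotation, namely ABCG1, ABCG6, ABCG10, ABCG11, ABCG20, ABCG23, ABCG26 and ABCG29. Of the 19 contigs, 10 belonged to the primary and 9 to the alternate contigs of the transcriptome used as reference, 16 carried an Arabidopsis symbol and 3 did not.

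The MdMYB68 group consisted of 4 libraries from 4-week-old leaves infiltrated with Agrobacterium tumefaciens carrying MdMYB68 as a GFP fusion under the CaMV 35S promoter, a promoter active in most plant cells, together with a strain carrying p19, a viral suppressor of gene silencing. The empty vector group consisted of 4 libraries from leaves of the same age that received the vector without MdMYB68 and the same p19 strain, so that infiltration and p19 were common to both groups. Leaves were collected 4 days after infiltration, and each library was made from a pool of 3 plants with 4 leaves each. The apple transgene was not analysed here, since no contig of the table is named MYB68.

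ABC transporters move substrates across membranes at the expense of ATP. A half-size ABCG protein carries a single nucleotide-binding domain and a single membrane domain and works as a dimer with itself or with another half-size partner, whereas a full-size ABCG protein carries both sets of domains in a single chain. In Arabidopsis, ABCG11 exports cutin monomers and wax from epidermal cells, and the study also cites a role of it in suberin deposition. ABCG2, ABCG6 and ABCG20 are needed there for the suberin barrier of roots and seed coats. ABCG1 takes part in suberin and in the pollen wall, and ABCG26 supplies pollen wall precursors from the tapetum. Suberin and cutin are polyesters of fatty acids and glycerol that seal cell walls against water loss, and their monomers have to cross the plasma membrane before they are joined in the wall.

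The label of the set fitted most of its contigs but not all. The contig Nbv5tr6241960 was described as a low-quality ABCG29-like protein in the Arabidopsis annotation and as a putative polyprotein in the other annotation column. It was 381 bases long, and ABCG29 is a full-size transporter in Arabidopsis. ABCG10 and ABCG26 are half-size proteins but are not known as suberin or cutin transporters. For Arabidopsis ABCG23 the study cites expression together with suberin synthesis genes, but no transport role. The names of close relatives were also not settled by the files. Nbv5tr6220564 was annotated as ABCG20-like but carried the symbol AT2G37360, the Arabidopsis locus of ABCG2, and Nbv5tr6229054 was ABCG20-like in the Arabidopsis column and member 6 in the other.

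Nbv5tr6206538 was annotated as ABCG6-like with the symbol AT3G55090, and the study's RT-qPCR primer list gives primers for the same contig under the name ABCG16. The label ABCG6 used for this contig below follows the wording of the annotation only. No other of the 19 contigs has primers in that list, and these are printed because the name of the contig differs between sources. The contig is the one named in that list, since no contig sequence was used here to place the primers. They are given in lower case, 5′ to 3′, with left and right as in that list.
Nbv5tr6206538 primer left: tggtgcggttatggttacgg
Nbv5tr6206538 primer right: gcgaagaatccaagccgttc

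Most of the contigs were long enough to hold much of a half-size transporter transcript. Their lengths ran from 374 to 2778 bases with a median of 2503, against a median of 1220 over all listed contigs. At least 2000 bases were reached by 15 of the 19, against 19.9% of all listed contigs. The shorter ones were Nbv5tr6228376 (ABCG10, 374 bases), Nbv5tr6241960 (ABCG29, 381 bases), Nbv5tr6229054 (ABCG20, 899 bases) and Nbv5tr6222768 (ABCG10, 1480 bases).

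Between 31244291 and 34080202 reads were mapped in the MdMYB68 libraries, and between 29371282 and 32279582 in the empty vector libraries. The listed contigs received 17.5% to 18.7% of these reads with MdMYB68 and 6.92% to 8.76% with the empty vector, and libraries of a group correlated with each other at 0.9799 to 0.9899. The leaf mesophyll markers in the table, 64 contigs of chlorophyll-binding proteins, photosystem subunits and the small subunit of ribulose bisphosphate carboxylase, summed to 6271 to 9707 RPM (reads scaled by all mapped reads of the library) with MdMYB68 and to 27264 to 39614 with the empty vector. Of these, 63 were called lower, with a median log2 ratio of -2.06, against 12.4% of all listed contigs called lower. Only contigs past the authors' 4-fold cut-off on these same libraries are listed. The median thus lies near that cut-off, and markers that changed less are not counted. Their part in the results below was not tested, and in whole leaves a change in the share of cells of a type cannot be told apart from a change of RNA per cell.

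The 19 ABCG contigs together received 142352 reads in the MdMYB68 libraries and 1330 reads in the empty vector libraries. Their summed levels were 1084, 1094, 1121 and 1107 RPM in MdMYB68 libraries 1 to 4, against 8.92, 12.9, 12.0 and 9.08 RPM in empty vector libraries 1 to 4. The ratio of reads per mapped read was 102.5. The MdMYB68 libraries were nearly equal, at 1102 ± 15.9 RPM (SD, n = 4), while the empty vector libraries averaged 10.7 ± 2.03 (SD, n = 4). A single contig, the ABCG1 contig Nbv5tr6236478, held 67% of these reads with MdMYB68 and 31.7% with the empty vector. Without it the ratio was 49.53.

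Levels of different contigs were compared as RPKM, which scales the reads of a contig by its length and by the mapped reads of the library, recomputed with all mapped reads as denominator. This was needed because the deposited RPKM values divide by the reads of the primary or of the alternate set alone, and all mapped reads exceeded the reads of the alternate set by 5.76 to 6.04 times but those of the primary set by only 1.2 to 1.21 times. The ABCG23 contig Nbv5tr6391580, an alternate contig, had a mean deposited RPKM of 57.3 in MdMYB68 leaves but 9.86 on the common scale.

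**Figure D1:**
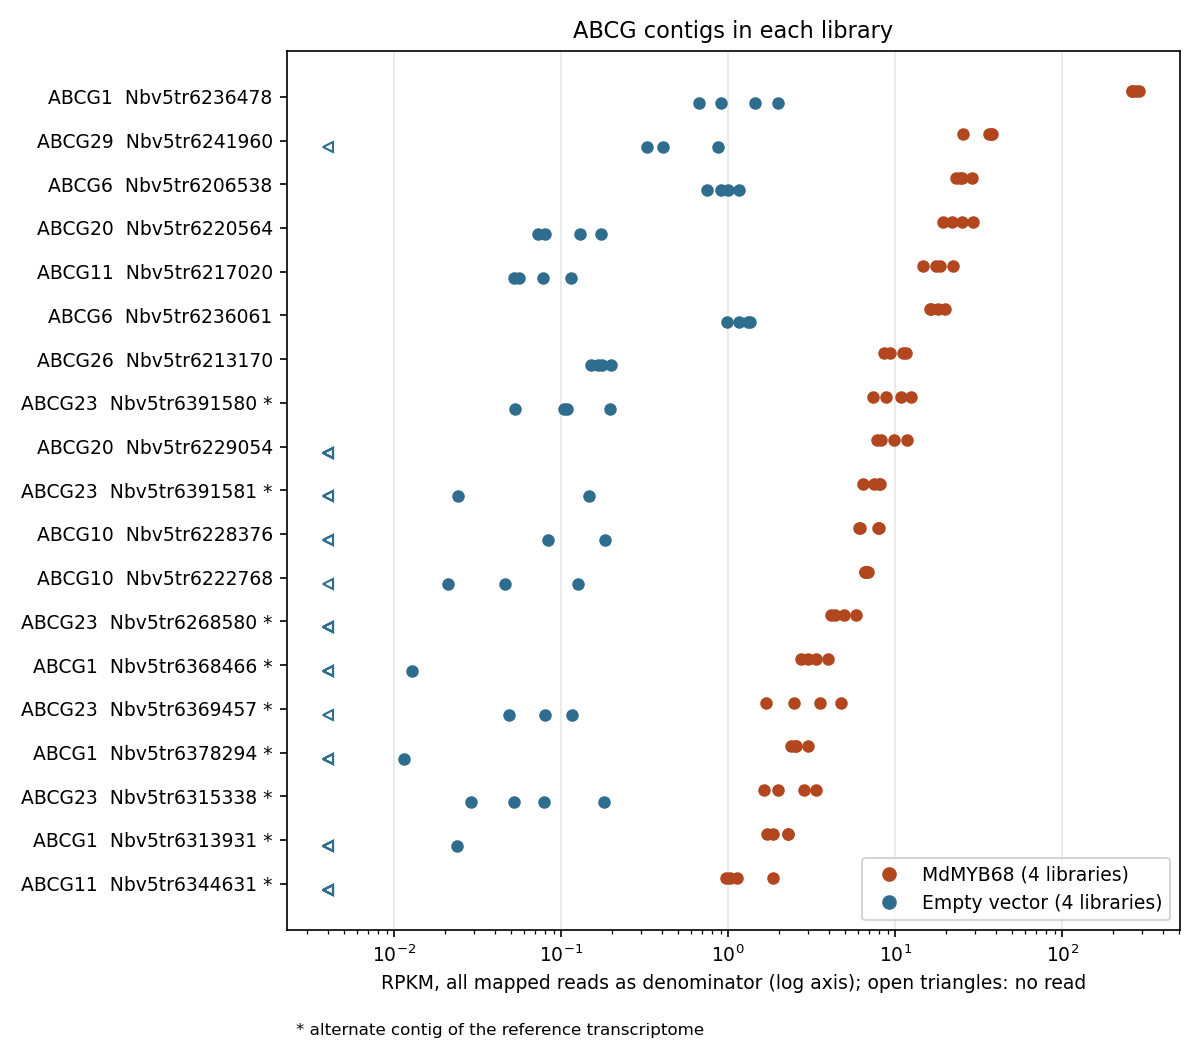
RPKM of each of the 19 ABCG contigs on a log axis, with all mapped reads as denominator, in the 4 MdMYB68 and the 4 empty vector libraries (1 point per library, open triangles for libraries without a read). In every contig the MdMYB68 points lie to the right of the empty vector points, and Nbv5tr6236478 of ABCG1 stands apart at 263 to 289 RPKM in MdMYB68 leaves.

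All 19 contigs were higher with MdMYB68 and passed an adjusted p of 0.001 in edgeR's quasi-likelihood test, fitted and adjusted over all 3305 listed contigs. The background for this count is high, since a contig entered the table only after passing the authors' cut-offs on these same libraries. Of all listed contigs, 95.9% were called, 83.4% higher and 12.4% lower, and the groups did not overlap in 100% of them, as in all 19 ABCG contigs, so neither count sets the ABCG contigs apart. Every single-contig exact permutation test gave p = 0.029, two-sided, which is the smallest p that 4 libraries against 4 can give. The sizes of the differences were larger than usual in the table. The median log2 ratio of the 19 contigs was 7.09, counting the 3 contigs without an empty vector read at their lower bound, against 3.35 over all listed contigs and 3.84 over those called higher. Of all listed contigs, 12% had a larger log2 ratio than the median ABCG contig. This is a description and not a test, since the set was drawn up with results of these data known.

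ABCG1, a half-size transporter linked to suberin and to the pollen wall, gave the highest transcript level of the set. Nbv5tr6236478 (symbol AT2G39350, 2712 bases, primary) had 275, 263, 289 and 263 RPKM in MdMYB68 libraries 1 to 4, against 0.665, 1.98, 1.44 and 0.902 RPKM in empty vector libraries 1 to 4. The MdMYB68 libraries differed little among themselves, at 272 ± 12.3 RPKM, while the empty vector libraries were spread more widely around 1.25 ± 0.588 RPKM (SD, n = 4 each). The ratio was 216.5, with an edgeR log2 fold change of 7.77 (standard error 0.35, edgeR adjusted p = 8.1e-09). Of its reads in MdMYB68 leaves 99.98% were placed on this contig alone.

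The other 3 ABCG1 contigs, all from the alternate set, were much lower and rested on shared reads. Nbv5tr6368466 had 282, 247, 328 and 256 reads in MdMYB68 libraries and 1 read in all empty vector libraries together, Nbv5tr6378294 had 204, 233, 216 and 262 against 1 read, and Nbv5tr6313931 had 151, 215, 160 and 205 against 2 reads. Their mean levels in MdMYB68 leaves were 3.27, 2.60 and 2.03 RPKM. The ratios were 1066 (95% Clopper-Pearson counting interval 191 to 42143), 876 (157 to 34653) and 350 (96.6 to 2896), and intervals and floors cover counting error only. None of the reads of Nbv5tr6368466 and Nbv5tr6313931 was uniquely placed, and 0.33% of those of Nbv5tr6378294 were. The edgeR log2 fold changes of 9.49, 9.20 and 8.13 moved to 11.11, 10.81 and 10.49 when the single empty vector library with a read was left out, libraries 1, 2 and 3 in that order. No empty vector read then remained, so the later values do not measure the size of the change. On uniquely placed reads Nbv5tr6378294 was not called, with a log2 fold change of 2.78 and edgeR adjusted p = 0.16. With all ABCG1 reads summed, the ratio was 220.7 (counting interval 200.6 to 243), close to that of the primary contig alone.

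The ABCG6 group, named after an Arabidopsis transporter of the suberin barrier, had the smallest ratios of the set together with the highest levels beside ABCG1 in leaves with the empty vector. Nbv5tr6206538, the contig of the primers printed above, had 25.1, 29.0, 23.1 and 24.3 RPKM in MdMYB68 libraries 1 to 4, against 0.909, 0.750, 1.16 and 0.995 RPKM in empty vector libraries 1 to 4. Its ratio was 26.8 and its edgeR log2 fold change 4.73 (standard error 0.16, edgeR adjusted p = 1.4e-09). The second contig, Nbv5tr6236061 without a symbol, averaged 17.6 ± 1.75 RPKM with MdMYB68 and 1.20 ± 0.170 RPKM with the empty vector (SD, n = 4 each), a ratio of 14.7 and the lowest log2 fold change of the 19, at 3.87 (standard error 0.15, edgeR adjusted p = 3.0e-09). At least 90.8% of the reads of either contig in MdMYB68 leaves were uniquely placed. Both contigs had reads in every empty vector library, from 62 to 108 per library, which was not so for most of the set, and their summed level varied by only 7.07% (coefficient of variation) among the empty vector libraries.

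The ABCG20 group belongs to the same suberin branch. Nbv5tr6220564 had 21.9, 25.0, 19.4 and 29.4 RPKM in MdMYB68 libraries 1 to 4, against 0.0802, 0.172, 0.130 and 0.0730 RPKM in empty vector libraries 1 to 4. All MdMYB68 values were far above all empty vector values, with a ratio of 209.8 and an edgeR log2 fold change of 7.69 (standard error 0.26, edgeR adjusted p = 1.4e-09). Nbv5tr6229054, which may be either ABCG20 or ABCG6 by its annotation, had 221, 300, 231 and 339 reads with MdMYB68 and none in the control leaves. Set against 3 reads over the whole empty vector group, the floor used for contigs without a read, it was at least 348-fold higher, and its mean level in MdMYB68 leaves was 9.37 ± 1.78 RPKM (SD, n = 4). Of its reads in MdMYB68 leaves 96.9% were uniquely placed.

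ABCG11, the exporter of cutin monomers and wax that is also linked to suberin, was represented by a primary and an alternate contig. The primary contig Nbv5tr6217020 (symbol WBC11) had 14.6, 18.5, 17.6 and 22.1 RPKM in MdMYB68 libraries 1 to 4, against 0.114, 0.0524, 0.0556 and 0.0778 RPKM in empty vector libraries 1 to 4. The empty vector values came from 8, 4, 4 and 6 reads. Its ratio was 244.8, the largest among contigs with more than 3 empty vector reads, and its edgeR log2 fold change was 7.90 (standard error 0.25, edgeR adjusted p = 9.3e-10). The alternate contig Nbv5tr6344631 had 69, 71, 75 and 128 reads with MdMYB68 and none with the empty vector, which made it at least 109.5-fold higher. Its library 4 stood above the others, and 48.1% of its reads were unique.

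ABCG23, symbol AT5G19410, was represented by 5 alternate contigs and no primary contig in the table. The one with most reads, Nbv5tr6391580, had 8.84, 10.8, 7.39 and 12.4 RPKM in MdMYB68 libraries 1 to 4, against 0.0530, 0.195, 0.103 and 0.109 RPKM in empty vector libraries 1 to 4. Its ratio was 85.0, with an edgeR log2 fold change of 6.39 (standard error 0.33, edgeR adjusted p = 2.4e-08). The mean levels of the other 4 in MdMYB68 leaves ran from 2.45 RPKM (Nbv5tr6315338) to 7.46 RPKM (Nbv5tr6391581). Nbv5tr6268580 had no empty vector read and was at least 473-fold higher, and the other ratios were 169.8 for Nbv5tr6391581, 51.6 for Nbv5tr6369457 and 29.0 for Nbv5tr6315338.

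Most reads of the ABCG23 contigs were not uniquely placed. The unique share in MdMYB68 leaves ran from 0% to 25.8% per contig, and the table does not give the contigs with which the other reads were shared. Their summed level was 27.7 ± 3.10 RPKM with MdMYB68 and 0.304 ± 0.127 RPKM with the empty vector (SD, n = 4 each), a ratio of 91.1 and an edgeR log2 fold change of 6.50 (standard error 0.26, edgeR adjusted p = 3.8e-09). On uniquely placed reads the summed log2 fold change was 7.84. Of the 14 empty vector reads of Nbv5tr6391581, 12 came from library 2, and its log2 fold change of 7.36 became 9.54 without that library. That of Nbv5tr6315338 was 4.82, and 5.47 without empty vector library 3.

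ABCG10 and ABCG26, half-size members outside the known suberin and cutin transporters, rose as well. The ABCG10 contig Nbv5tr6222768 (symbol AT1G53270) had 6.57, 6.82, 6.62 and 6.84 RPKM in MdMYB68 libraries 1 to 4, against 0.0460, 0.0211, 0 and 0.126 RPKM in empty vector libraries 1 to 4. The MdMYB68 libraries were close together, with a coefficient of variation of 2.07%, while the empty vector values came from 2, 1, 0 and 6 reads. Its ratio was 136.6 (counting interval 71.8 to 299.5). The edgeR log2 fold change was 7.02 (standard error 0.50, edgeR adjusted p = 2.5e-07) and became 8.08 without empty vector library 4. The short ABCG10 contig Nbv5tr6228376 ranged between 6.04 and 7.97 RPKM in MdMYB68 leaves, with 3 empty vector reads in all and a ratio of 107.9 (counting interval 36.6 to 526). Its log2 fold change of 6.54 was 7.50 without empty vector library 1.

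ABCG26, in Arabidopsis the exporter of pollen wall precursors from the tapetum, had a low level in every empty vector library. Nbv5tr6213170 (symbol WBC27) had 11.1, 8.57, 11.6 and 9.31 RPKM in MdMYB68 libraries 1 to 4, against 0.198, 0.166, 0.177 and 0.150 RPKM in empty vector libraries 1 to 4. Its reads were 100% uniquely placed, its ratio was 58.7 and its edgeR log2 fold change was 5.86 (standard error 0.21, edgeR adjusted p = 1.8e-09). Of the anther tapetum markers sought, only 2 contigs were in the table, ACOS5 and AT1G68540, while others such as MS2 and AMS were absent. Both contigs were called higher, as were 83.4% of all listed contigs. Together these 2 markers reached 15.8 to 26.0 RPM with MdMYB68 against 0.166 to 0.511 with the empty vector. Their part in the ABCG26 value was not tested.

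The ABCG29-like contig Nbv5tr6241960 was second in level but is the least certain member. It had 37.3, 36.3, 38.2 and 25.5 RPKM in MdMYB68 libraries 1 to 4, against 0, 0.328, 0.871 and 0.407 RPKM in empty vector libraries 1 to 4. MdMYB68 library 4 lay below the other 3. The ratio was 85.2 and the edgeR log2 fold change 6.38 (standard error 0.52, edgeR adjusted p = 6.4e-07), or 7.04 without empty vector library 3. All its reads were uniquely placed.

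**Figure D2:**
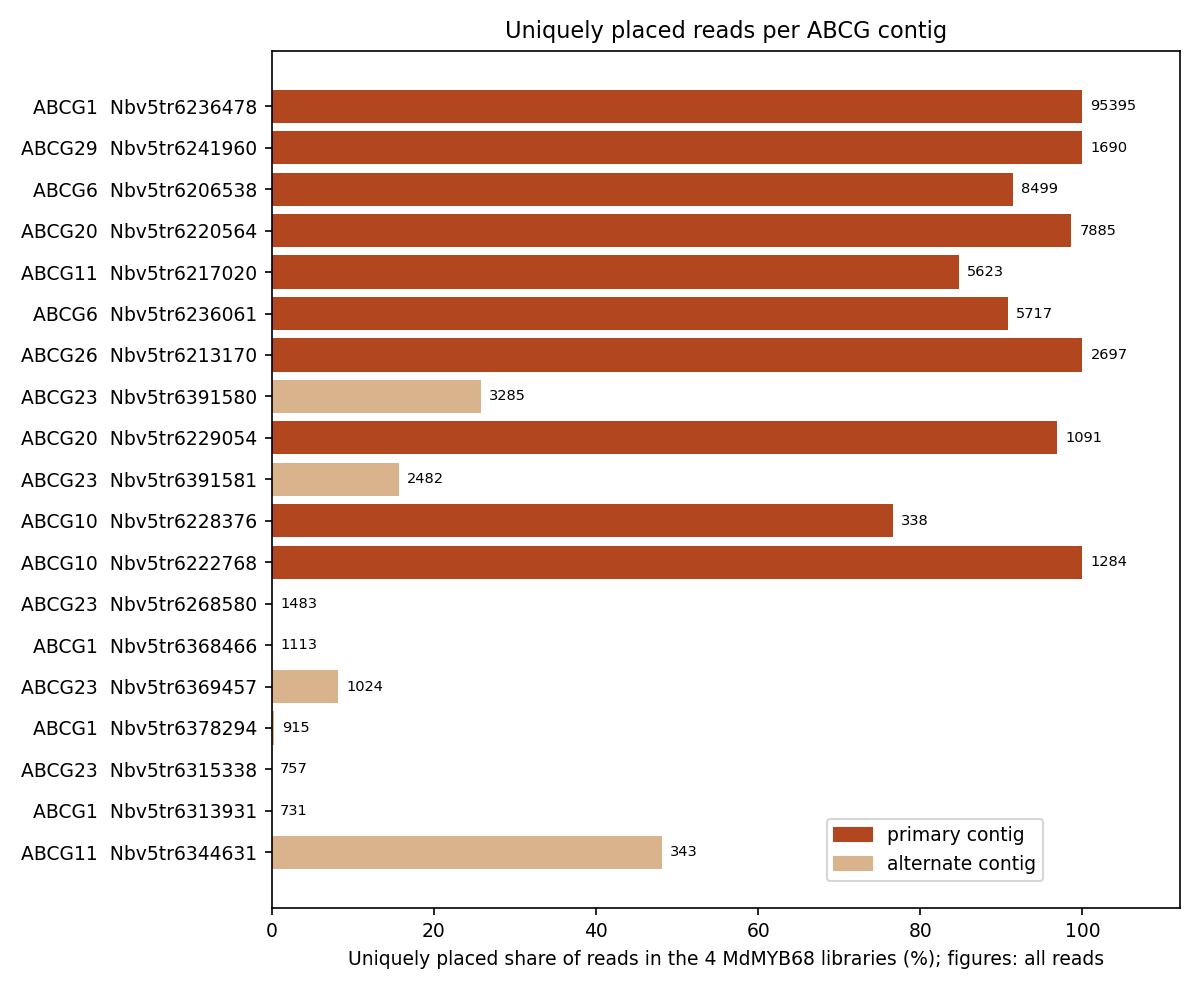
Percentage of the reads of each ABCG contig in the 4 MdMYB68 libraries that were placed on that contig alone (bars), with the total reads beside each bar. Primary contigs run from 76.6% to 100%, while alternate contigs run from 0% to 48.1%.

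The plot of uniquely placed reads separates the set along the primary and alternate contigs. Over 80% of the reads were unique in 9 contigs, all primary, and under 10% in 6 contigs, all alternate, of which 4 had no unique read in any library. The table does not show which contigs share reads, so reads of the alternate contigs may be shared within an ABCG number or with contigs outside it.

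In MdMYB68 leaves the order of levels began with Nbv5tr6236478 of ABCG1, followed by Nbv5tr6241960 of ABCG29, Nbv5tr6206538 of ABCG6, Nbv5tr6220564 of ABCG20, Nbv5tr6217020 of ABCG11 and Nbv5tr6236061 of ABCG6. Neighbours in this order overlapped in range in 14 of 18 pairs. The ranges were apart after Nbv5tr6236478, after Nbv5tr6236061, after Nbv5tr6222768 of ABCG10, which ranked 12, and after Nbv5tr6268580 of ABCG23, which came next. In empty vector leaves 18 of 18 neighbour pairs overlapped, and the 3 highest contigs were Nbv5tr6236478 and both ABCG6 contigs, at means of 1.25, 1.20 and 0.952 RPKM.

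Because the ratios differed between members, the make-up of the set differed between the groups. ABCG1 made up 61.8%, 58.7%, 63.2% and 59.0% of the summed RPKM of the 19 contigs in MdMYB68 libraries 1 to 4, against 18.4%, 37.4%, 27.1% and 22.9% in empty vector libraries 1 to 4. ABCG6 made up 9.0%, 10.6%, 8.39% and 9.24% with MdMYB68, against 60.4%, 39.3%, 42.8% and 50.1% with the empty vector. The groups did not overlap in either share. Contigs labelled ABCG6 were the leading part in every empty vector library, and those labelled ABCG1 in every MdMYB68 library. These shares do not depend on how libraries were scaled to each other. They do depend on the annotation labels. Nbv5tr6206538, labelled ABCG6, is ABCG16 in the primer list, and Nbv5tr6229054, labelled ABCG20, is named as ABCG6 in the other annotation column.

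The other shares were smaller. ABCG20 averaged 7.21 ± 1.34% with MdMYB68 and 2.41 ± 0.584% with the empty vector, and ABCG11 averaged 4.21 ± 0.753% and 1.77 ± 0.995% (SD, n = 4 each), with no overlap between groups. ABCG26 was the only other number with a lower share in every MdMYB68 library, at 2.19 ± 0.295% against 3.88 ± 1.03% with the empty vector. The shares of ABCG10, ABCG23 and ABCG29 overlapped, with means of 2.97%, 6.0% and 7.43% in MdMYB68 leaves and 2.83%, 6.39% and 8.13% in empty vector leaves. Shares add up to a whole and are not independent of each other, and they were not tested. RPKM was summed over contigs of unequal length, such as the ABCG10 contigs of 374 and 1480 bases. Contigs that are pieces of the same transcript would each count in full. The ABCG29 share rests on the 381-base contig of uncertain identity.

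**Figure D3:**
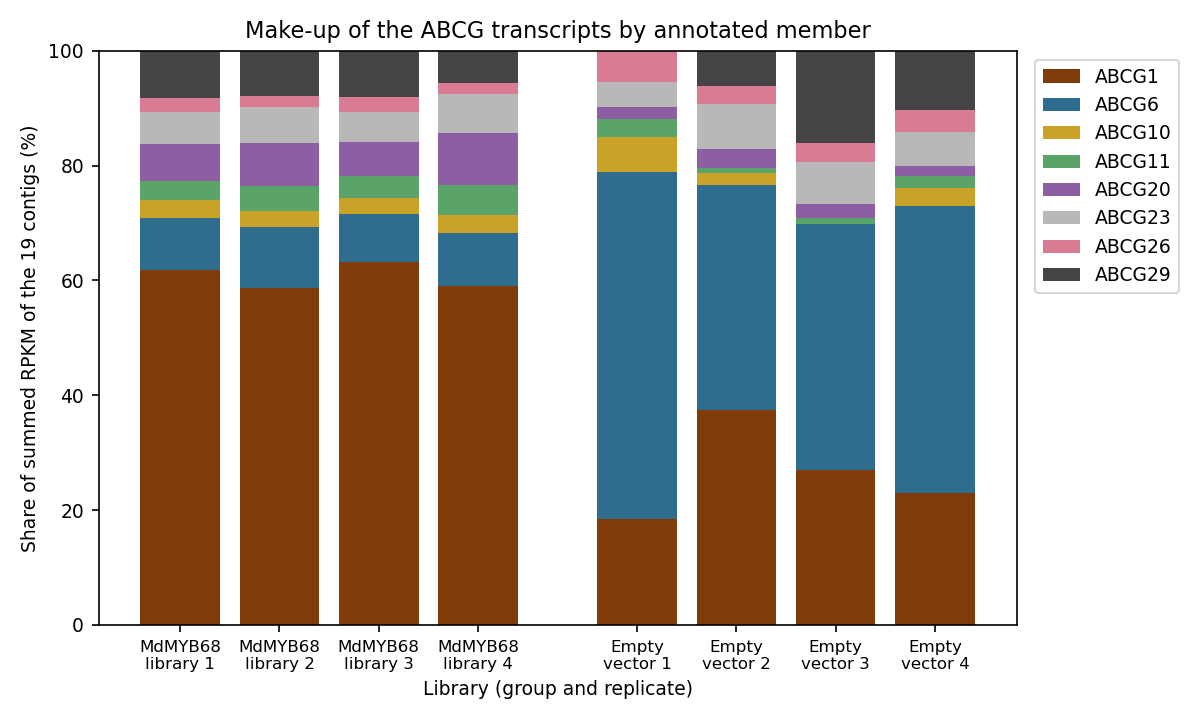
Share of the summed RPKM of the 19 contigs (%) held by each ABCG number in each library, MdMYB68 libraries left and empty vector libraries right. ABCG1 takes 58.7% to 63.2% of the bar in MdMYB68 leaves and 18.4% to 37.4% in empty vector leaves, and ABCG6 takes 8.39% to 10.6% and 39.3% to 60.4%.

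Summed over the contigs of a number, the ratios fell into an order from ABCG11 at 259.7 (counting interval 171 to 415), ABCG20 at 238.8 (172 to 341) and ABCG1 at 220.7, over ABCG10 at 129.5 (73.9 to 251), ABCG23 at 91.1 (74.4 to 112.7), ABCG29 at 85.2 (54.4 to 141.9) and ABCG26 at 58.7 (43.6 to 81.0), to ABCG6 at 20.1 (18.6 to 21.8). The counting intervals of the first 4 overlapped each other, and that of ABCG6 overlapped none. These intervals do not cover the spread between libraries, so they do not settle the order. With each library left out in turn, the summed edgeR log2 fold change ran from 7.59 to 8.11 for ABCG1 and from 4.26 to 4.36 for ABCG6. All 8 sums passed 0.001 in the edgeR fit, with adjusted p-values from 5.6e-10 for ABCG6 to 6.5e-07 for ABCG29.

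Within the MdMYB68 group the members did not vary together in full. The coefficient of variation of the summed level was 4.46% for ABCG1 and 7.61% for ABCG10, but 17.8% for ABCG11 and 18.0% for ABCG20. Libraries 2 and 4 both lay above libraries 1 and 3 in 9 of the 19 contigs, against 12.4% of all listed contigs, and the reverse held for 4 of the 19, namely Nbv5tr6368466 and Nbv5tr6236478 of ABCG1, Nbv5tr6213170 of ABCG26 and Nbv5tr6241960 of ABCG29, against 26.8% of all listed contigs. This grouping of libraries was noticed after the values were seen and was not tested.

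**Figure D4:**
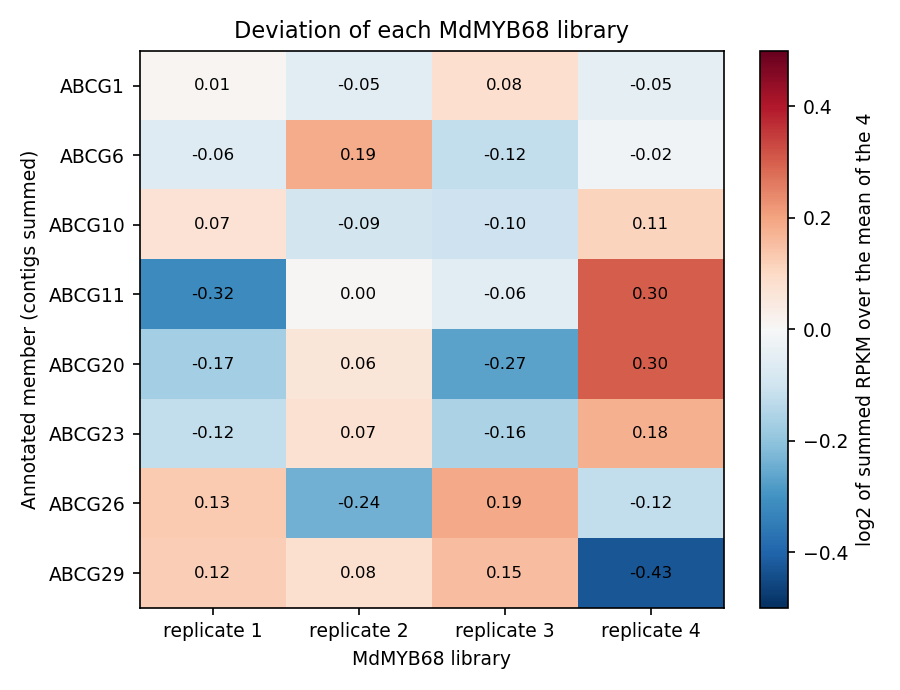
log2 of the summed RPKM of each ABCG number in each MdMYB68 library over the mean of the 4 libraries. ABCG11 and ABCG20 have their highest value in library 4, at 0.30 each, where ABCG29 has its lowest, at -0.43, while ABCG1 stays between -0.05 and 0.08.

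The full-size ABCG transporters left out of the set moved in the same direction. All 13 PDR12 contigs, annotated like ABCG40, were called higher, as were 83.4% of all listed contigs. Their median log2 ratio was 8.22, and 7 of them had no empty vector read. All 13 stayed positive when library factors were estimated from the table itself by TMM or DESeq2. Of 6 contigs of other ABC families, 4 were called higher and 2 lower, with a median of 2.25, but with TMM factors 1 and with DESeq2 factors 2 of the 6 were positive. The lower ones were Nbv5tr6261358 (GCN5) and Nbv5tr6346302 (NAP9), with log2 fold changes of -2.01 and -6.48. In both, fewer than 1% of the reads were uniquely placed. The same held for some contigs called higher, such as the PDR12 contigs Nbv5tr6257362 (0%) and Nbv5tr6370281 (0.40%).

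The steps of suberin and cutin synthesis were read from lists of annotated contigs. Whether the products of these steps are substrates of the ABCG contigs was not tested. Since 83.4% of all listed contigs were called higher, counts called higher do not by themselves set any of these lists apart. All 20 contigs annotated as CYP86, the omega-hydroxylases of fatty acids, were called higher (median log2 ratio 6.52), of which 2 carry the symbol CYP96A10. The same held for 5 of 5 contigs that either annotation column names omega-hydroxypalmitate O-feruloyl transferase (median 6.50), 3 of 3 fatty acyl reductases (4.73), 10 of 10 contigs of fatty acid elongation (3.20) and the only long-chain acyl-CoA synthetase (5.54), but with TMM or DESeq2 factors 6 of the 10 elongation contigs and 2 of the 3 reductases stayed positive, while all contigs of the other 3 lists did. The feruloyl transferase name is doubtful for 2 of the 5, since the Arabidopsis annotation calls Nbv5tr6212895 (RPD1) a root primordium defective protein and Nbv5tr6203661 (AT1G32910) a shikimate hydroxycinnamoyltransferase-like protein. The words glycerol-3-phosphate acyltransferase occurred in the annotation of 5 contigs (median 3.25), of which 3 were positive with TMM or DESeq2 factors. The 4 called higher were glycerol-3-phosphate acyltransferases, which attach acyl chains to glycerol. The 1 called lower, Nbv5tr6329949 (ATS2), was annotated as a 1-acyl-sn-glycerol-3-phosphate acyltransferase, a different enzyme that acts on lysophosphatidic acid. It had no uniquely placed read, and neither had some contigs called higher, such as Nbv5tr6315453 (CYP86A1) and the feruloyl transferase contig Nbv5tr6338715. The median log2 ratio of the ABCG contigs, 7.09, thus lay above the medians of these lists and above that of all listed contigs, 3.35, and below those of the full-size ABCG40-like contigs and of the 10 Casparian strip membrane protein contigs (9.99), which in roots mark the endodermis and were all called higher. Casparian strip contigs summed to 1138 to 1373 RPM with MdMYB68 and to 0.434 to 1.22 with the empty vector.

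**Figure D5:**
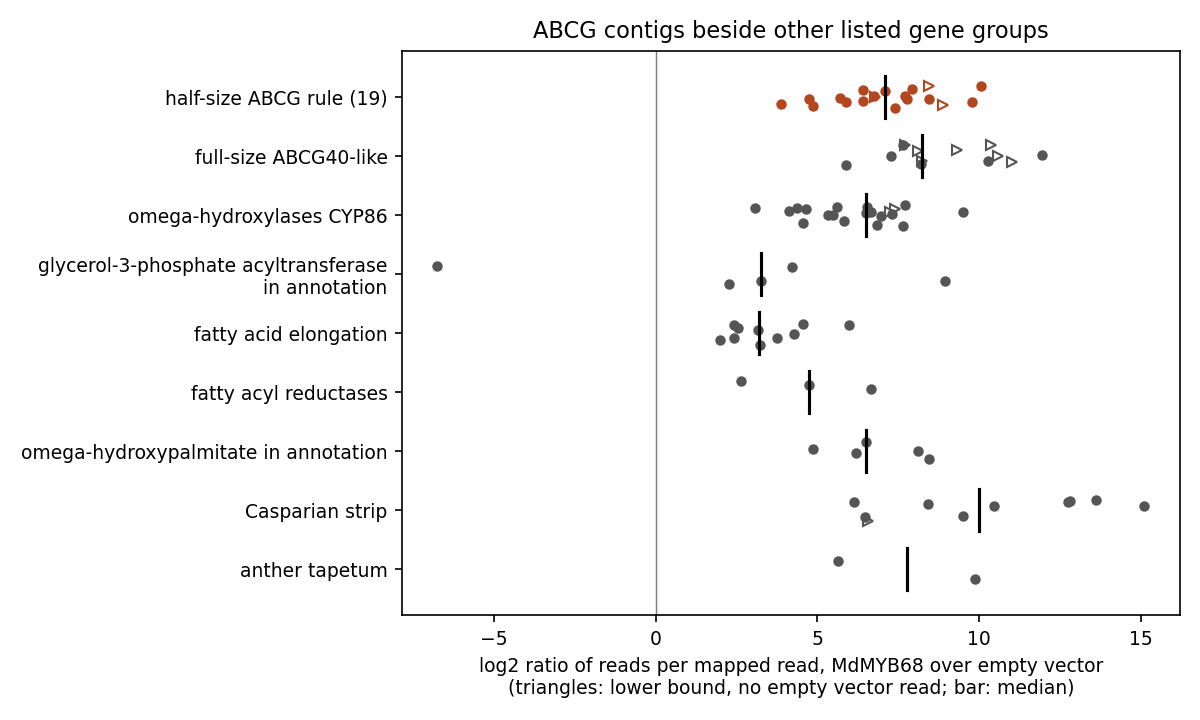
log2 ratio of reads per mapped read, MdMYB68 over empty vector, for the 19 ABCG contigs (top row, orange) and for contigs of other annotated groups (grey), with open triangles for lower bounds of contigs without an empty vector read and a bar at each median. The ABCG contigs run from 3.88 to 10.06 with a median of 7.09, and the full-size ABCG40-like contigs have a median of 8.22.

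The contigs whose pattern over the 8 libraries was most like the summed ABCG reads were a serine carboxypeptidase 24-like contig, Nbv5tr6220273 (BRS1), a dihydroflavonol reductase contig, Nbv5tr6397347, and a GDSL esterase contig, Nbv5tr6222730 (AT1G74460). Their Pearson correlations on the log2 scale were 0.99992, 0.999916 and 0.999871. Such values are common in this table, since the points share libraries and fall into the 2 groups. Of 2420 contigs compared, 804 had a correlation above 0.99. The GDSL esterase contig averaged 324 ± 17.0 RPKM in MdMYB68 leaves and 0.465 ± 0.131 RPKM in empty vector leaves (SD, n = 4 each).

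The selection that made the table bears on the low members of the set. The cut-offs in the study's methods were a 4-fold change and a difference of 5 RPKM, and all 19 contigs met both on the deposited scale. With all mapped reads as denominator 12 of the 19 met both, against 68.6% of all listed contigs. The 7 that did not were all alternate contigs, with mean levels from 1.25 to 4.82 RPKM in MdMYB68 leaves. The primary contigs of the set started at 6.71 RPKM.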

How the data were processed

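RNA-Seq libraries of 8 leaf pools, 4 per group, were sequenced as 75 base-pair paired-end reads. The authors trimmed the reads and aligned them to the v5 transcriptome of N. benthamiana, which has a primary and an alternate set of contigs, in CLC Genomics Workbench v11.0.1. They deposited counts per contig and library, as total gene reads and as uniquely placed reads, without normalization. The deposited RPKM values divide these reads by contig length and by the reads of the set, primary or alternate, that the contig belongs to. Only contigs past their cut-offs are in the table, so the tests here only describe contigs already selected for a difference. Columns with the authors' group means, fold changes, differences, p-values and FDR values were not used, and 0 sample columns were left unused.

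All mapped reads per library were recovered from reads, length and RPKM (largest relative deviation of recomputed RPKM 3.1e-08) and used as library sizes with normalization factors of 1. In R 4.3.3, edgeR 4.0.16 was fitted to the total gene reads without covariates (glmQLFit and glmQLFTest), with Benjamini-Hochberg adjustment over 3305 contigs and a threshold of 0.001. Standard errors were derived from the log2 fold change and the F statistic and may understate the counting error of contigs with few reads. Contigs of 1 ABCG number were also summed and tested in the same fit. Exact permutation tests used log2(RPKM + 1). A contig without a read in a group was given a floor of 3 reads over the group, and intervals are 95% exact Clopper-Pearson intervals. Python 3.11.15 was used with pandas 2.3.3, scipy 1.17.1, numpy 2.4.6 and, for the figures, matplotlib 3.10.9. The fits were tested on simulated counts.

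The contigs and lists were chosen with earlier results of these data known. Values in every library are given for the contig with most MdMYB68 reads of each ABCG number and for the contig of the RT-qPCR primers, the others are given by range and count, and the 3 contigs most like the summed reads are named. Contigs whose values are given beyond this, such as those with few empty vector reads, were chosen after their values were seen. Alternatives were uniquely placed reads, TMM factors, the contig's own set as library size, limma 3.58.1 on RPKM with a pseudocount of 1 or 0.1, DESeq2 1.42.0 with size factors fixed from mapped reads or estimated, each library left out in turn, the replicate number as a block, a threshold of 0.05, and a filter at a mean of 10 reads. Library sizes without the listed contigs and the cut-offs with all mapped reads were added after the data were seen. Contig sequences and genome positions were not used here.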

Additional observations from a re-analysis of the deposited data

Results flagged for a closer look

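In 7 of 63 groups of 4 libraries a single library lay far from the other 3. For normally distributed values this happens in about 1 of 20 groups. That rate cannot be set against the 7, since a group with reads in a single library is always flagged. In MdMYB68 library 4 the ABCG11 contig Nbv5tr6344631 had 1.86 RPKM, against 0.976 to 1.12 in the other MdMYB68 libraries, and the ABCG29-like contig Nbv5tr6241960 had 25.5 RPKM, against 36.3 to 38.2. The share of ABCG29 in that library, which rests on the same contig, was 5.55%, against 7.88% to 8.17% in the others. The remaining 4 are empty vector libraries with few reads. Nbv5tr6368466 had 0.0129 RPKM in library 1, Nbv5tr6378294 had 0.0115 RPKM in library 2 and Nbv5tr6313931 had 0.0239 RPKM in library 3, each with no read in the other 3 libraries. Nbv5tr6391581 had 0.146 RPKM in library 2, against 0 to 0.0241 in the others.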

How the results depend on the processing

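The log2 fold changes of the 19 contigs stayed positive under each alternative (on uniquely placed reads, of the 15 with such reads), as did the 8 sums under those run for them, uniquely placed reads, TMM factors, the block and leaving out each library. TMM factors and DESeq2's own size factors, computed on a list of selected contigs, lowered the median log2 fold change over all listed contigs to 0.40 and 0.43, against 3.34 with all mapped reads. The ABCG medians were then 4.46 and 4.51, and the lowest ABCG contig, Nbv5tr6236061, had 0.92 and 0.95. Over all listed contigs TMM gave 1576 calls and DESeq2's own factors 1977, against 3168 with all mapped reads. The share of calls that were higher was 61.2% and 62.1%, against 87.0%. With TMM factors 17 ABCG contigs were called, without Nbv5tr6369457 (2.72, edgeR adjusted p = 0.0028) and Nbv5tr6315338 (1.90, edgeR adjusted p = 0.0060). On uniquely placed reads 14 of 15 contigs with such reads were called. With all mapped reads as RPKM denominator 12 of 19 contigs met the cut-offs. Leaving out each library kept all 19 calls, with 3078 to 3158 calls over all listed contigs.

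No pairing by replicate number was seen in the values. Deviations of same-numbered libraries correlated at -0.100, -0.094, -0.013 and 0.018, and those of differently numbered libraries at -0.111 to 0.161. These correlations cannot show whether same-numbered libraries were prepared together. With the replicate number as a block 18 ABCG contigs were called and 2615 over all listed contigs, and Nbv5tr6344631 (9.40, edgeR adjusted p = 0.0016) was not. Depth limits the empty vector side, where 7 contigs had at most 3 reads and their ratios are bounds or wide intervals.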
